A study of Mus musculus with 8 samples.

Results

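The genes described here are 9 members of the bone morphogenetic protein (BMP) pathway and its Id targets: the ligand Bmp4, the receptor Bmpr1a, the signalling SMADs Smad1 and Smad5, the inhibitory Smad6, and the Id genes Id1, Id2, Id3 and Id4. They were taken by gene symbol from gene tables that hold 21995 genes or joined gene entries, and all 9 were found and passed the filter on low values. RNA was sequenced from mouse pluripotent stem cells in 4 groups of 2 libraries. CDGC1 and CDGC6 are separate stem cell lines from testicular teratoma cells of Dnd1ter/ter pups, which carry the ter mutation on both copies of the germ cell gene Dnd1, on the 129Sv background with the Oct4deltaPE-GFP reporter, at passages 15 to 18. Dnd1-KD cells are embryonic stem (ES) cells of wild-type genotype and 129/Ola strain in which Dnd1 was knocked down, at passages 10 to 12. The control is the ES cell line E14tg2a, with the same genotype, strain and passages. The medium of all 4 groups held serum and LIF, a cytokine that keeps ES cells undifferentiated. Each group is 1 line, and genotype, strain, origin, reporter and passage all differ at once when a derived line is set against the control, so their effects cannot be told apart.

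BMP ligands bind pairs of type I and type II receptor kinases, and the activated type I receptor phosphorylates SMAD1 and SMAD5. These SMADs join SMAD4, enter the nucleus and switch on target genes, of which the Id genes are the best known. ID proteins lack a DNA-binding region and hold E proteins away from DNA, which blocks the transcription factors of differentiation that pair with them. In mouse ES cells, BMP4 or serum acting through Id genes is known to work together with LIF to sustain self-renewal. SMAD6 is itself switched on by BMP signalling and acts back on the receptors and SMADs as a brake.

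Expression is given as FPKM, the fragments assigned to a gene divided by transcript length and by sequencing depth. Differences were taken on the log2(FPKM + 1) scale, are printed ± SE and were tested with limma, and a gene passed when its Benjamini-Hochberg adjusted p over all 11892 genes tested was below 0.05. The intervals in the files implied 10.7 M to 18.0 M fragments per library. Whether the 2 libraries of a group are separate cultures is not stated by the labels, and the p-values reflect only library-to-library spread, which may be technical. Dnd1 gave no check of the knockdown: it was listed at 0 in the 6 libraries that list it alone and was joined with its neighbour Hars in both Dnd1-KD libraries. Hprt, which E14tg2a is known to lack in working form, was at 121 to 133 FPKM in the derived lines, at 0.533 and 0.642 FPKM in Dnd1-KD and at 0.359 and 0.455 FPKM in control. The summed FPKM of 12 pluripotency genes was 1856 to 1949 in CDGC1, 2648 to 3104 in CDGC6, 1234 to 1500 in Dnd1-KD and 2449 to 2452 in control. All 12 genes were at 1 FPKM or above in the other groups and 9 of the 12 in CDGC1. Markers of the naive state were nearly absent from CDGC1: Zfp42 at 0.0220 and 0 FPKM against 335 and 352 in control, Esrrb at 0.211 and 0.140 against 78.6 and 82.9, and Dppa4 at 0.317 and 0.657 against 109.9 and 112.3. Klf4 was at 1.05 and 1.19 FPKM in CDGC1, against 35.1 and 37.3 in control. The part of these levels in the results for CDGC1 was not tested.

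In CDGC1 the ligand Bmp4 and the target Id4 fell to a small fraction of their control levels, Smad6 was lower, and the receptor Bmpr1a with the signalling SMADs Smad1 and Smad5 was higher. In total 3 of the 9 genes rose and 3 fell, where 23.5% of all genes tested rose and 26.9% fell, 50.4% in all. In CDGC6, by contrast, Bmp4, Smad6, Id1 and Id2 fell and none of the 9 rose, so that 4 of 9 passed, where 18.4% of all genes tested did, 8.29% higher and 10.1% lower. In Dnd1-KD cells Bmpr1a, Smad1, Smad5 and Id4 rose and only Bmp4 of the 9 fell, where 20.6% of all genes rose and 15.5% fell, 36.1% in all. The derived lines differed from each other in 7 of the 9 genes, 5 higher and 2 lower in CDGC1 than in CDGC6, in a comparison in which 23.0% of all genes were higher and 24.0% lower, 47.0% in all. The shares for all genes are so high in CDGC1 against control, in CDGC1 against CDGC6 and in Dnd1-KD against control that these 3 counts do not set the 9 genes apart. The CDGC6 count is not read as setting them apart either. It includes Smad6, whose control level is poorly determined, and Id1 and Id2, whose profiles were much alike. The 9 genes were also chosen with earlier results of these data known. The 3 comparisons with control share its libraries.

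**Figure D1:**
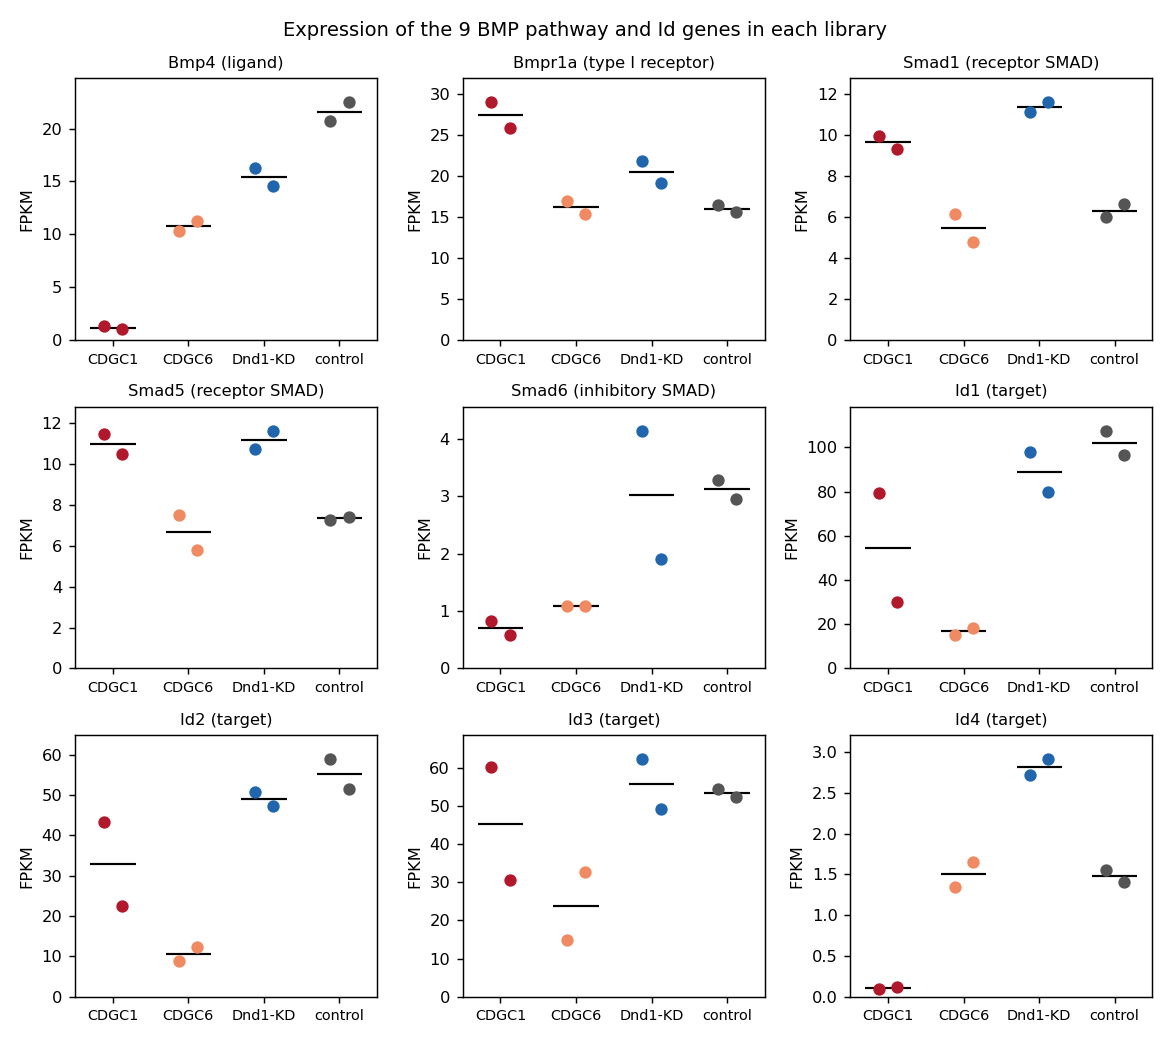
FPKM of each of the 9 genes (y axis, from 0, 1 panel a gene) in the 8 libraries, grouped on the x axis as CDGC1, CDGC6, Dnd1-KD and control; each point is 1 library and each bar the mean of the group. Bmp4 and Id4 are lowest in both CDGC1 libraries, Id1 and Id2 are lowest in both CDGC6 libraries, and the CDGC1 libraries lie far apart for Id1, Id2 and Id3.

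**Figure D2:**
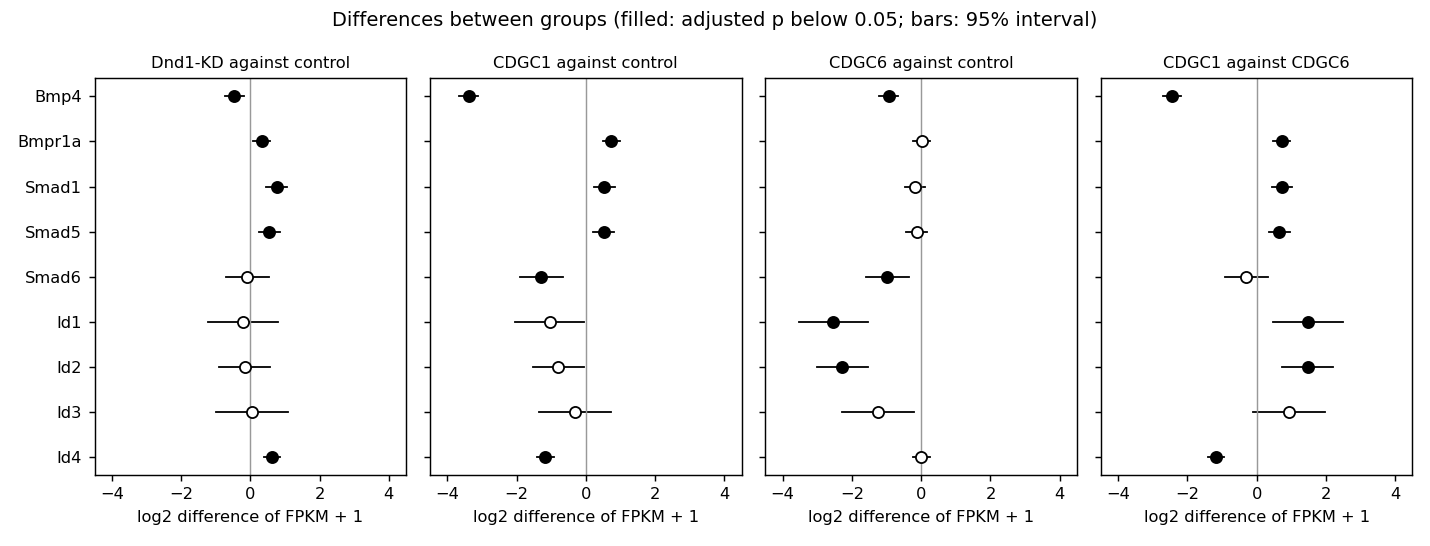
Log2 difference of FPKM + 1 (x axis) for each gene (y axis) in the 4 comparisons, first group minus second; bars are 95% intervals from limma and filled points passed at an adjusted p below 0.05. The Id1, Id2 and Id3 intervals are the widest in each panel, and the Bmp4 point is left of 0 in all 4.

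Bmp4 encodes the ligand that serves ES cell self-renewal and, in the embryo, induces primordial germ cells. The gene (mm10 chromosome 14, 46383520 to 46390669, minus strand) is overlapped on the other strand by the protein-coding gene Gm15217 and the antisense gene Gm15222, and the libraries did not mark strand. Bmp4 was at 1.32 and 1.02 FPKM in CDGC1, at 10.3 and 11.2 in CDGC6, at 16.3 and 14.6 in Dnd1-KD and at 20.7 and 22.5 in control. The groups did not overlap, and their order was CDGC1, CDGC6, Dnd1-KD and control from lowest to highest; Dnd1-KD and CDGC6 were not tested against each other. The CDGC1 mean was 0.0540 of the control mean (1.17 ± 0.212 against 21.6 ± 1.26 FPKM, SD, n = 2 each), a log2 difference of −3.39 ± 0.11 (SE, adjusted p = 9.05e-06). The CDGC6 mean was 0.499 of the control mean (log2 difference −0.94 ± 0.11, adjusted p = 0.00491), and CDGC1 lay below CDGC6 by a log2 difference of −2.45 ± 0.11 (adjusted p = 3.05e-05). The fall in Dnd1-KD was the smallest, to 0.715 of control (−0.46 ± 0.11, adjusted p = 0.0223). Without Dnd1-KD library 2, control library 1 or control library 2 it no longer passed (adjusted p = 0.116, 0.0871 and 0.133, in a range of 0.0116 to 0.133 over all alternatives), whereas in both derived lines it passed in all 19 alternatives. Because these are bulk samples, fewer cells that express a gene and less of its RNA per cell cannot be told apart, here and below.

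The tables were also searched for genes with the profile most like that of Bmp4, by the root mean square of the differences in centred log2(FPKM + 1) over the 8 libraries, among 10500 genes with a value in every library. The nearest were Slc50a1, a sugar transporter, at 0.11, Dcaf12l1 at 0.13 and Arid5b, a chromatin-associated regulator, at 0.18. Slc50a1 was at 0.129 and 0.138 FPKM in CDGC1, 4.15 and 5.35 in CDGC6, 7.30 and 6.11 in Dnd1-KD and 10.2 and 9.46 in control. Arid5b was at 1.06 and 1.34 FPKM in CDGC1, 13.4 and 15.2 in CDGC6, 21.5 and 18.7 in Dnd1-KD and 24.2 and 23.2 in control. Both show the Bmp4 order of groups, which follows from picking them for their likeness to Bmp4 over these libraries. None of the other 8 genes was near it by this measure: Id4, the closest, ranked 422 of 10500 and Smad6 ranked 680. The measure also reflects level, as the + 1 shrinks differences of genes at low FPKM. In CDGC1 Id4 was 0.0719 of control and Bmp4 0.0540, with log2 differences of −1.16 and −3.39.

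Of the other 12 ligands listed, 7 were tested. Only Bmp7 of these rose in CDGC1, at 6.20 and 9.57 FPKM against 1.61 and 1.73 in control (log2 difference 1.71 ± 0.20, adjusted p = 0.000818), while 4 fell, 5 of 7 in all where 50.4% of all genes passed. Gdf3, a TGF-beta family ligand of pluripotent cells that also binds BMPs, was at 1.91 and 2.30 FPKM in CDGC1 against 27.8 and 28.1 in control (−3.22 ± 0.16, adjusted p = 3.04e-05). It was at 27.3 and 30.9 FPKM in CDGC6, so the lines did not overlap and CDGC1 was lower (−3.28 ± 0.16, adjusted p = 3.77e-05). Bmp8b, which works beside BMP4 in germ cell formation, fell in CDGC1 (−1.82 ± 0.10, adjusted p = 4.23e-05) and in CDGC6 (−0.72 ± 0.10, adjusted p = 0.00736). CDGC6 had 3 ligands lower and none higher, with Bmp8a (−0.76 ± 0.14, adjusted p = 0.0205) and Bmp6 (−0.35 ± 0.08, adjusted p = 0.0391) beside Bmp8b. Bmp8a is a close copy of Bmp8b and was joined with Oxct2a in the tables, so its value is uncertain. In Dnd1-KD 3 of 7 ligands rose and none fell, a share near the 36.1% of all genes that passed there: Bmp2 (0.98 ± 0.21, adjusted p = 0.0152), Gdf6 (0.70 ± 0.11, adjusted p = 0.00601) and Bmp6 (0.32 ± 0.08, adjusted p = 0.0295). Bmp2, the closest relative of Bmp4, was at 1.99 and 2.06 FPKM in Dnd1-KD and at 0.497 and 0.566 in control, levels far below those of Bmp4. Gdf6 (1.11 and 1.51 FPKM) and Bmp6 (1.24 and 1.05 FPKM) reached 1 FPKM only in Dnd1-KD. Bmp2 reached it only there and in CDGC1 library 2 (1.48 FPKM). These ligands thus met the filter through the group where they are high, which favoured rises in the Dnd1-KD count. The calls of Bmp2 and Bmp6 in Dnd1-KD and of Bmp8a and Bmp6 in CDGC6 were lost without either control library, that of Gdf6 without control library 1 (adjusted p = 0.0509), and that of Bmp8b in CDGC6 without control library 1 (0.0683).

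Bmpr1a encodes a type I receptor for BMP2 and BMP4 (chromosome 14, 34410734 to 34503341, minus strand, with the antisense gene Gm17110 inside its span). It was at 29.0 and 25.8 FPKM in CDGC1, 17.0 and 15.3 in CDGC6, 21.8 and 19.1 in Dnd1-KD and 16.4 and 15.5 in control. CDGC1 stood above all other libraries, and CDGC6 overlapped control. The CDGC1 mean was 1.71 times that of control (log2 difference 0.74 ± 0.10, adjusted p = 0.00169) and 1.69 times that of CDGC6 (0.73 ± 0.10, adjusted p = 0.00217). In CDGC6 the difference was 0.01 ± 0.10 with a 95% interval of −0.24 to 0.26 (adjusted p = 0.943). The rise in Dnd1-KD, 1.28 times control, was at the edge of the test (0.33 ± 0.10, adjusted p = 0.0476). It was lost under quantile normalization (adjusted p = 0.0845) and without any of the Dnd1-KD or control libraries or either CDGC6 library (up to 0.206, in a range of 0.0245 to 0.206).

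Among the other receptors and co-receptors, 8 of 11 were tested, and 5 of these rose and 2 fell in CDGC1. The median log2 difference was 0.76, against −0.03 over all genes, of which 23.5% rose and 26.9% fell. Acvr1, another type I receptor for BMPs, was at 11.9 and 10.1 FPKM in CDGC1 and 2.92 and 2.87 in control (1.62 ± 0.11, adjusted p = 0.000115). The type II receptors Acvr2a, at 9.43 and 9.15 FPKM in CDGC1 against 4.31 and 3.97 in control (adjusted p = 0.000341), and Acvr2b (0.75 ± 0.11, adjusted p = 0.00195) also rose there. Dnd1-KD had 3 of the 8 receptors higher and none lower, a share near the 36.1% of all genes that passed there. They were the type II receptors Bmpr2 (1.01 ± 0.13, adjusted p = 0.00347) and Acvr2a (0.62 ± 0.09, adjusted p = 0.00553) and the type I receptor Acvr1 (0.64 ± 0.11, adjusted p = 0.00898). The Acvr2a call was lost without control library 2 (0.0504) and the Acvr1 call without either control library or Dnd1-KD library 2 (up to 0.0618). Bmpr2 was at 8.07 and 8.63 FPKM in Dnd1-KD, against 3.66 and 3.65 in control. CDGC6 had only Acvr2b higher (0.42 ± 0.11, adjusted p = 0.0454), a call lost when any 1 library other than CDGC6 library 2 was left out (up to 0.217). The lines themselves differed in Acvr2a (CDGC1 minus CDGC6 1.22 ± 0.09, adjusted p = 0.00021), Acvr1 (1.41 ± 0.11, adjusted p = 0.000254) and Bmpr2 (1.06 ± 0.13, adjusted p = 0.00117). Eng, a co-receptor, was listed at 0 in both CDGC1 libraries and in CDGC6 library 1, at 5.47 FPKM in CDGC6 library 2, at 13.4 and 14.1 in Dnd1-KD and at 9.54 and 11.5 in control. A listed 0 can be a failed estimate.

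Smad1 and Smad5 encode the SMADs that BMP receptors phosphorylate. Smad1 (chromosome 8, 79338395 to 79399518, minus strand) was at 9.94 and 9.33 FPKM in CDGC1, 6.14 and 4.80 in CDGC6, 11.1 and 11.6 in Dnd1-KD and 6.01 and 6.63 in control. Smad5 (chromosome 13, 56703010 to 56742377, plus strand) was at 11.5 and 10.5 FPKM in CDGC1, 7.53 and 5.81 in CDGC6, 10.8 and 11.6 in Dnd1-KD and 7.28 and 7.43 in control. Both genes thus fell into the same 2 levels, a higher one in CDGC1 and Dnd1-KD and a lower one in CDGC6 and control, with no overlap between the levels in FPKM. The files' intervals for Smad5 were wide in CDGC1 library 1 (7.75 to 15.2 FPKM) and Dnd1-KD library 1 (6.87 to 14.7 FPKM) and reach into the lower level, where the control intervals ran from 6.87 to 7.92 FPKM. Smad1 was 1.80 times control in Dnd1-KD (log2 difference 0.76 ± 0.12, adjusted p = 0.00651) and 1.53 times in CDGC1 (0.54 ± 0.12, adjusted p = 0.0112). Smad5 was 1.52 times control in Dnd1-KD (0.55 ± 0.12, adjusted p = 0.0194) and 1.50 times in CDGC1 (0.52 ± 0.12, adjusted p = 0.0146). In CDGC6 the 95% intervals ran from −0.48 to 0.11 for Smad1 and from −0.44 to 0.17 for Smad5. CDGC1 was above CDGC6 in Smad1 (0.72 ± 0.12, adjusted p = 0.00404) and Smad5 (0.65 ± 0.12, adjusted p = 0.00686).

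Single libraries decided part of this. The Smad1 calls in Dnd1-KD and CDGC1 were lost without control library 1 (adjusted p = 0.0545 and 0.0752, the highest of their alternatives, the lowest being 0.00488 and 0.00533). The Smad5 calls were lost without either control library in Dnd1-KD (0.105 and 0.0887) and CDGC1 (0.0760 and 0.0666). They were also lost without either Dnd1-KD library (0.0527 and 0.102) and without CDGC1 library 1 (0.0607), in ranges of 0.0103 to 0.105 and 0.00577 to 0.0760. Both directions held in each alternative.

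Smad4, the shared partner of all receptor-activated SMADs, was at 39.5 and 38.1 FPKM in CDGC1, 29.2 and 25.5 in CDGC6, 43.7 and 42.7 in Dnd1-KD and 29.1 and 29.6 in control, the same arrangement at a higher level per length. It rose in Dnd1-KD (0.54 ± 0.08, adjusted p = 0.00515) and in CDGC1 (0.39 ± 0.08, adjusted p = 0.00788, lost without control library 1 at 0.0546). In Dnd1-KD 20.6% of all genes rose and 15.5% fell. Of the 10 tested SMADs and SMAD regulators, 6 rose and none fell there, with a median of 0.55 against 0.02 over all genes. They included Smurf1, a ubiquitin ligase that takes SMAD1 and SMAD5 to degradation (0.66 ± 0.07, adjusted p = 0.00251), and Zeb2, a SMAD-binding repressor listed here jointly with a microRNA in its span (1.09 ± 0.18, adjusted p = 0.00765, lost without control library 1 at 0.0534). In CDGC1 3 rose and 2 fell, 5 of 10 where 50.4% of all genes passed. Among those that rose were Zeb2 (1.56 ± 0.18, adjusted p = 0.000879) and Lemd3, an inner nuclear membrane protein that restrains receptor-activated SMADs (0.58 ± 0.09, adjusted p = 0.00266). Zeb2 was at 2.98 and 4.82 FPKM in CDGC1 against 0.587 and 0.684 in control. It reached 1 FPKM only in CDGC1 and Dnd1-KD, and so met the filter only through groups where it is high. In CDGC6 none of the 10 passed by limma, and none had an unadjusted p under 0.05 apart from Tob1, an antiproliferative SMAD-binding protein, at 8.33 and 6.49 FPKM against 10.6 and 11.2 in control (−0.51 ± 0.16, unadjusted p = 0.0163, adjusted p = 0.069).

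Smad6, the inhibitory SMAD that is itself a BMP target, was expressed at low levels (chromosome 9, 63953076 to 64022059, minus strand). It was at 0.825 and 0.573 FPKM in CDGC1, 1.09 and 1.09 in CDGC6, 4.14 and 1.90 in Dnd1-KD and 3.28 and 2.96 in control. Both derived lines were below all ES cell libraries, and the Dnd1-KD libraries stood on either side of the control ones. Smad6 was 0.224 of control in CDGC1 (log2 difference −1.28 ± 0.26, adjusted p = 0.00751) and 0.349 of control in CDGC6 (−0.98 ± 0.26, adjusted p = 0.0479). The files' own intervals around the control values were very wide, from 0 to 36.0 and from 0 to 88.9 FPKM, so the control level rests on poorly determined estimates. The CDGC6 call was lost when any 1 library other than a Dnd1-KD one was left out (adjusted p up to 0.196, in a range of 0.0109 to 0.196). The CDGC1 call held in all 18 alternatives in which Smad6 was tested. Smad7, the other inhibitory SMAD, was at 15.4 and 17.0 FPKM in CDGC6 and 13.5 and 14.2 in control (0.20 ± 0.10, adjusted p = 0.184).

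The promoter window of Smad6 is shown (RefSeq start sites, GRCm38.p6, 250 bases before to 50 after the start, chr9:64022010-64022309, minus strand). Among the 8 of the 9 genes with a window (Id1 had none), it alone holds the palindrome GTCTAGAC, a sequence known to bind SMAD proteins in vitro. The capitals mark it, at position −4 from the transcription start. It occurs in 0.213% of all 32851 promoter windows of this length, on either strand.
Smad6: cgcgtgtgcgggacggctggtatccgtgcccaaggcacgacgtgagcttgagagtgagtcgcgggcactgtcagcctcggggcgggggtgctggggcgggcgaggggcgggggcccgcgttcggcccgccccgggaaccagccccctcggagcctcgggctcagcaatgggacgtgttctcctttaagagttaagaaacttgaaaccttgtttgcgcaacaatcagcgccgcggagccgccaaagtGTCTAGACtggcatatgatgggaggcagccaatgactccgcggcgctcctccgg

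In Dnd1-KD and control, Id1, Id2 and Id3 were at higher FPKM than the other 6 genes, whereas Id4 had the lowest value of the 9 in control. The promoter windows of the Id genes were searched for GGCGCC, a GC-rich sequence to which SMAD1 and SMAD5 are known to bind at BMP targets. It reads the same on both strands and is present in 11.9% of the 32851 windows. RefSeq windows matched 8 of the 9 genes, Id1 not among them. The windows of Id2 (chr12:25096043-25096342, minus strand), Id3 (chr4:136143572-136143871, plus strand) and Id4 (chr13:48260866-48261165, plus strand) are printed because these genes differ in their profiles across the groups. GGCGCC, in capitals, is in the Id2 window at position −231 from the start and in the Id4 window at −148, and not in the Id3 window. The match is a description of letters and not a measured site.
Id2: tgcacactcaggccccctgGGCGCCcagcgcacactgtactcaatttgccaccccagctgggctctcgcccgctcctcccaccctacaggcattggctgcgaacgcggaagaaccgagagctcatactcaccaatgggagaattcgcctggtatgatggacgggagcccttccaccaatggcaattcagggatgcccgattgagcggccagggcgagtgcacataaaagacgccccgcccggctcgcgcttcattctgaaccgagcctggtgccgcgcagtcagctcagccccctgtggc
Id3: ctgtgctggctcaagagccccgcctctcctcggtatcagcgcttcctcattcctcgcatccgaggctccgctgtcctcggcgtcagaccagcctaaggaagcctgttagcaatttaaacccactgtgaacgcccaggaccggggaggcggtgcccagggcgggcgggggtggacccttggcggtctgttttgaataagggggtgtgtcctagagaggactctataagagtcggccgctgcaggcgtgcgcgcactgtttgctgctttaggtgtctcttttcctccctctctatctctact
Id4: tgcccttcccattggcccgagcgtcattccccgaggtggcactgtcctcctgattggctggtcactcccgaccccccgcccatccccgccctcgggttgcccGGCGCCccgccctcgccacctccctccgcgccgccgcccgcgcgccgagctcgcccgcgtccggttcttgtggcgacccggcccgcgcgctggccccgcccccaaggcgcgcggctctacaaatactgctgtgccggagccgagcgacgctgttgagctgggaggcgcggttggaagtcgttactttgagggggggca
GGCGCC was also present in the windows of Bmpr1a and in 2 of the 3 windows of Smad5, and neither sequence was in those of Bmp4 and Smad1.

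Id1 (chromosome 2, 152736251 to 152737410, plus strand) is a classic direct target of BMP-activated SMADs. It was at 79.4 and 29.9 FPKM in CDGC1, 15.3 and 18.4 in CDGC6, 97.9 and 80.0 in Dnd1-KD and 107.6 and 96.6 in control. Both CDGC6 libraries were below all others, and far below those of Dnd1-KD and control. The CDGC1 libraries lay between CDGC6 and control, wide apart. The CDGC6 mean was 0.165 of control (16.8 ± 2.20 against 102 ± 7.75 FPKM, SD, n = 2 each), a log2 difference of −2.54 ± 0.41 (adjusted p = 0.0129). In CDGC1 the mean was 0.536 of control and did not pass (−1.05 ± 0.41, adjusted p = 0.0794). CDGC1 was above CDGC6 by 1.49 ± 0.41 (adjusted p = 0.0272). In Dnd1-KD the difference was −0.20 with a 95% interval of −1.21 to 0.80 (adjusted p = 0.740).

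Id2 (chromosome 12, 25093799 to 25097140, minus strand) followed Id1 closely. It was at 43.3 and 22.4 FPKM in CDGC1, 8.93 and 12.4 in CDGC6, 50.7 and 47.3 in Dnd1-KD and 58.9 and 51.4 in control. Among 10500 genes Id2 had the profile nearest to that of Id1, with a root mean square difference of 0.18 in centred log2(FPKM + 1) over the 8 libraries, and the next were Cxcl10, a chemokine, at 0.45 and Tinagl1, a secreted matrix protein, at 0.47. The CDGC6 mean was 0.193 of control (log2 difference −2.28 ± 0.30, adjusted p = 0.00717). CDGC1 did not pass against control (−0.80 ± 0.30, adjusted p = 0.0696) and was above CDGC6 (1.48 ± 0.30, adjusted p = 0.00873). In Dnd1-KD the difference was −0.17 with a 95% interval of −0.90 to 0.57.

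Id3 (chromosome 4, 136143497 to 136145755, plus strand) was at 60.1 and 30.6 FPKM in CDGC1, 14.8 and 32.6 in CDGC6, 62.2 and 49.1 in Dnd1-KD and 54.5 and 52.3 in control. CDGC6 was below control in both libraries and overlapped CDGC1. It ranked 12 of 10500 in likeness to Id1, at 0.55. None of the 4 comparisons passed: the difference was −1.24 ± 0.43 in CDGC6 (adjusted p = 0.0942), −0.31 ± 0.43 in CDGC1, 0.05 ± 0.43 in Dnd1-KD and 0.93 ± 0.43 between CDGC1 and CDGC6.

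The libraries of CDGC1 disagreed on these 3 genes. Library 1 was 2.65 times library 2 for Id1, 1.93 times for Id2 and 1.97 times for Id3. These gaps were larger than those of 99.6%, 98.5% and 98.6% of the 7502 genes at or above 5 FPKM in library 1 as well as library 2, and the files' intervals for the libraries did not overlap. Bmpr1a, Smad1 and Smad5 showed gaps of 1.12, 1.07 and 1.09 times in the same libraries. With CDGC1 library 1 left out, Id1 and Id2 passed as lower than control (log2 difference −1.73, adjusted p = 0.00164, and −1.26, adjusted p = 0.00646). With library 2 left out they came to −0.36 and −0.34, so how far these genes lay below control in CDGC1 rested on library 2. In CDGC6 Id3 had a gap of its own, with library 2 at 2.20 times library 1, larger than in 99.1% of 7719 genes. Without that library 2, Id3 was higher in CDGC1 than in CDGC6 (1.47, adjusted p = 0.0427).

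Some secreted BMP antagonists also differed between the CDGC1 libraries. Chordin (Chrd) and Cerberus (Cer1), which were named after their values had been seen, bind BMPs outside the cell. Chrd was at 2.22 and 9.35 FPKM in CDGC1, 2.75 and 1.89 in CDGC6, 0.641 and 0.439 in Dnd1-KD and 0.902 and 0.794 in control. Cer1 was at 1.74 and 16.1 FPKM in CDGC1, 2.62 and 0.534 in CDGC6, 0.122 and 0.119 in Dnd1-KD and 0.103 and 0.0699 in control. CDGC1 library 2, with the lower Id values, had the higher Chrd and Cer1. Of the 8 antagonists tested, however, 3 were higher in CDGC1 library 2 and 5 in library 1, and the 5 include Fst at 107 and 90.9 FPKM and Nog at 2.64 and 1.88 FPKM in libraries 1 and 2. Some endoderm genes were also higher in library 2, as Dab2 at 2.59 and 5.45, Gata6 at 0.441 and 1.35 and Hhex at 2.31 and 5.45 FPKM, while over the 13 extraembryonic endoderm genes listed 6 were higher in each library. The part of any of these in the Id values was not tested.

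**Figure D3:**
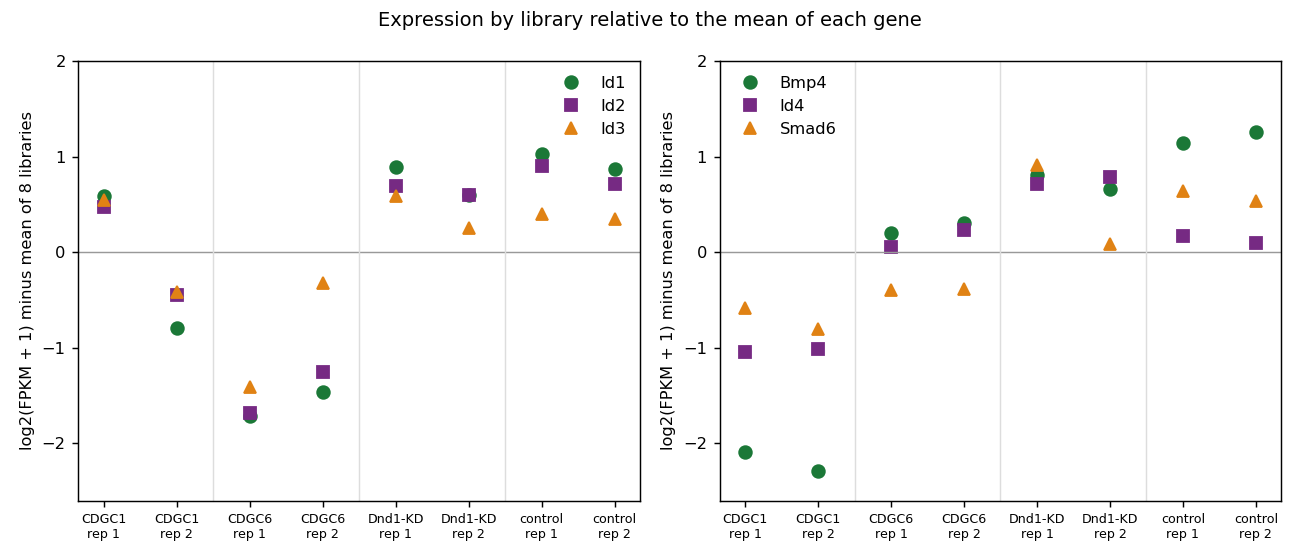
Log2(FPKM + 1) minus the mean of each gene over the 8 libraries (y axis) by library (x axis), with Id1, Id2 and Id3 in the left panel and Bmp4, Id4 and Smad6 in the right one. On the left, CDGC1 replicates 1 and 2 lie on opposite sides of 0 for all 3 genes and the CDGC6 libraries are lowest for Id1 and Id2, with Id3 of CDGC6 replicate 2 above that of CDGC1 replicate 2; on the right, both CDGC1 libraries are lowest for each gene.

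The levels of Id1 and Id2 in CDGC6 were low whichever library was left out, and the adjusted p did not always pass. Id1 no longer passed against control without CDGC6 library 1 (adjusted p = 0.0572), control library 1 (0.0801) or control library 2 (0.0681), in a range of 0.00162 to 0.0801, with log2 differences between −2.66 and −2.41 whichever library was left out. Id2 was lost without control library 1 (0.0531, in a range of 0.00264 to 0.0531), with log2 differences between −2.50 and −2.06. The Id1 difference between the lines was 0.80 without CDGC1 library 1 and 2.18 without CDGC1 library 2. Its call was lost with only these groups in the fit (0.0834) and without CDGC6 library 1 or 2 (0.112 and 0.0787, in a range of 0.000966 to 0.112).

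Id4 (chromosome 13, 48261228 to 48266026, plus strand) is the Id gene best known from neural precursors and spermatogonia. It was at 0.0965 and 0.117 FPKM in CDGC1, 1.34 and 1.66 in CDGC6, 2.72 and 2.91 in Dnd1-KD and 1.55 and 1.41 in control. Both CDGC1 libraries were near 0, CDGC6 overlapped control, and Dnd1-KD stood above all others. The CDGC1 mean was 0.0719 of control (log2 difference −1.16 ± 0.10, adjusted p = 0.000214) and 0.0711 of CDGC6 (−1.17 ± 0.10, adjusted p = 0.000275). In Dnd1-KD the mean was 1.90 times control (0.62 ± 0.10, adjusted p = 0.00597), a call that was lost without control library 2 (adjusted p = 0.0505, in a range of 0.00391 to 0.0505). In CDGC6 the difference was 0.01 with a 95% interval of −0.23 to 0.24. The + 1 in the log scale makes these differences smaller than the ratios of the means. A330033J07Rik and Gm49291 overlap Id4 on the other strand, and the libraries did not mark strand.

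Summed over all 4, Id expression was 183 and 83.02 FPKM in CDGC1, 40.4 and 65.0 in CDGC6, 214 and 179 in Dnd1-KD and 223 and 202 in control. Id1 made up 43.4% and 36.1% of it in CDGC1, 37.8% and 28.2% in CDGC6, 45.9% and 44.6% in Dnd1-KD and 48.3% and 47.9% in control. The largest part of the sum was Id3 rather than Id1 in CDGC1 library 2 and in CDGC6 library 2, at 36.8% and 50.1%. Id4 contributed 3.33% at most.

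Of the 8 tested antagonists, which bind ligands outside the cell, 6 rose and none fell in CDGC1, with a median log2 difference of 1.34. Of all genes, 23.5% rose there. Grem1, Chrd and Cer1 reached 1 FPKM only in derived lines, and so met the filter only through groups where they are high. The filter thus favoured rises in the derived lines, and the count and median for CDGC1 hold such genes among the 6. The calls of Chrd (adjusted p = 0.0351) and Cer1 (0.0389) among them were lost when any 1 CDGC6, Dnd1-KD or control library was left out (0.0520 to 0.120), and that of Cer1 also without CDGC1 library 2 (0.0759). Follistatin (Fst), which binds activins and some BMPs, was at 107 and 90.9 FPKM in CDGC1, 24.1 and 17.1 in CDGC6, 3.03 and 4.999 in Dnd1-KD and 5.08 and 6.08 in control. Each derived line lay above both ES cell groups, and CDGC1 was above CDGC6. Fst rose in CDGC1 (3.92 ± 0.24, adjusted p = 6.97e-05) and in CDGC6 (1.70 ± 0.24, adjusted p = 0.00846, lost without control library 1 at 0.0621), and the lines differed (2.22 ± 0.24, adjusted p = 0.000742). Gremlin (Grem1), an antagonist of BMP2 and BMP4, was at 2.40 and 3.73 FPKM in CDGC1, 2.43 and 4.09 in CDGC6, 0.201 and 0.378 in Dnd1-KD and 0.198 and 0.192 in control. It rose in CDGC1 (1.75 ± 0.23, adjusted p = 0.00141) and CDGC6 (1.81 ± 0.23, adjusted p = 0.00669). Twsg1, which joins chordin in holding BMPs, rose in CDGC1 (1.03 ± 0.09, adjusted p = 0.000338) and Dnd1-KD (0.60 ± 0.09, adjusted p = 0.0063). Nbl1, another secreted BMP binder, rose in Dnd1-KD (1.22 ± 0.13, adjusted p = 0.00229) and fell in CDGC6 (−0.50 ± 0.13, adjusted p = 0.0473, lost without any 1 CDGC6, Dnd1-KD or control library). In all, 2 antagonists rose in CDGC6 with 1 lower, where 18.4% of all genes passed. In Dnd1-KD 2 rose with none lower, where 36.1% of all genes passed.

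Other genes that BMP-SMAD signalling is known to switch on were counted in the same way, 10 of 12 being tested. In CDGC1 1 rose and 5 fell, with a median of −0.59, where 23.5% of all genes rose and 26.9% fell. In CDGC6 3 fell and none rose, with a median of −0.70 against −0.01 over all genes, of which 10.1% fell. The 3 were Gata2, Cdx2 and Gata3 (Gata3 −0.60 ± 0.16, adjusted p = 0.0462). The Gata3 call was lost in 11 alternatives, among them no filter, quantile normalization and each CDGC6, Dnd1-KD or control library left out. Gata2, a regulator of blood and trophoblast genes, was at 0.197 and 0.0839 FPKM in CDGC1, 0.406 and 0.420 in CDGC6, 2.95 and 2.42 in Dnd1-KD and 2.12 and 2.02 in control. It fell in CDGC1 (−1.43 ± 0.10, adjusted p = 0.00013) and in CDGC6 (−1.12 ± 0.10, adjusted p = 0.00239). Tbx3, a factor of the naive pluripotent state, was at 0.169 and 0.0766 FPKM in CDGC1, 3.25 and 5.56 in CDGC6, 13.2 and 9.43 in Dnd1-KD and 8.73 and 7.88 in control. Its difference in CDGC1 was −3.05 ± 0.24 (adjusted p = 0.000171), and CDGC1 was also below CDGC6 (−2.23 ± 0.24, adjusted p = 0.000724). Hey1, a repressor that Notch also controls, fell in CDGC1 (−0.94 ± 0.13, adjusted p = 0.00179). Cdx2, the trophectoderm and hindgut factor, fell in CDGC1 (−0.72 ± 0.16, adjusted p = 0.0113), CDGC6 (−0.95 ± 0.16, adjusted p = 0.0138) and Dnd1-KD (−1.03 ± 0.16, adjusted p = 0.00597). The CDGC6 call was lost without any 1 CDGC6 or control library, and the CDGC1 call without either control library (up to 0.0553). Dnd1-KD had 1 target higher and 2 lower, where 20.6% of all genes rose and 15.5% fell. The higher one was Gata3 (1.03 ± 0.16, adjusted p = 0.00566), which reached 1 FPKM only in Dnd1-KD and so met the filter only through that group. Beside Cdx2, the lower one was Sp5, at 3.62 and 2.69 FPKM against 16.9 and 21.6 in control (−2.28 ± 0.16, adjusted p = 0.000674). Sp5 is also a direct target of Wnt signalling.

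Of 8 listed genes for E proteins and other partners of the same pathways, 5 were tested. Of these 3 rose and 1 fell in CDGC1, 2 rose and none fell in CDGC6, and 1 rose and 1 fell in Dnd1-KD. The shares of all genes that passed were 50.4% in CDGC1, 18.4% in CDGC6 and 36.1% in Dnd1-KD. Tcf12, an E protein, was at 38.4 and 36.6 FPKM in CDGC1, 11.4 and 10.0 in CDGC6, 15.0 and 16.2 in Dnd1-KD and 8.42 and 9.18 in control. CDGC1 lay far above all other libraries, and Dnd1-KD above CDGC6 and control. Tcf12 rose in CDGC1 (1.97 ± 0.09, adjusted p = 2.93e-05) and in Dnd1-KD (0.76 ± 0.09, adjusted p = 0.00323), and in CDGC6 it did not pass (0.26 ± 0.09, adjusted p = 0.109). Hes1, a repressor of the Notch pathway, rose in CDGC1 (1.31 ± 0.11, adjusted p = 0.000275) and in CDGC6 (0.47 ± 0.11, adjusted p = 0.0404, lost without any 1 CDGC6, Dnd1-KD or control library). Tcf4, an E protein gene, rose in CDGC1 (0.51 ± 0.10, adjusted p = 0.00552) and in CDGC6 (0.38 ± 0.10, adjusted p = 0.0427, lost without CDGC6 library 1 or any 1 Dnd1-KD or control library). Hes6, which counteracts Hes1, fell in Dnd1-KD (−0.43 ± 0.11, adjusted p = 0.03, lost without any 1 Dnd1-KD or control library). The E protein gene Tcf3 had no usable control value, being listed at 0 in control library 1 and at 28.9 FPKM in control library 2.

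**Figure D4:**
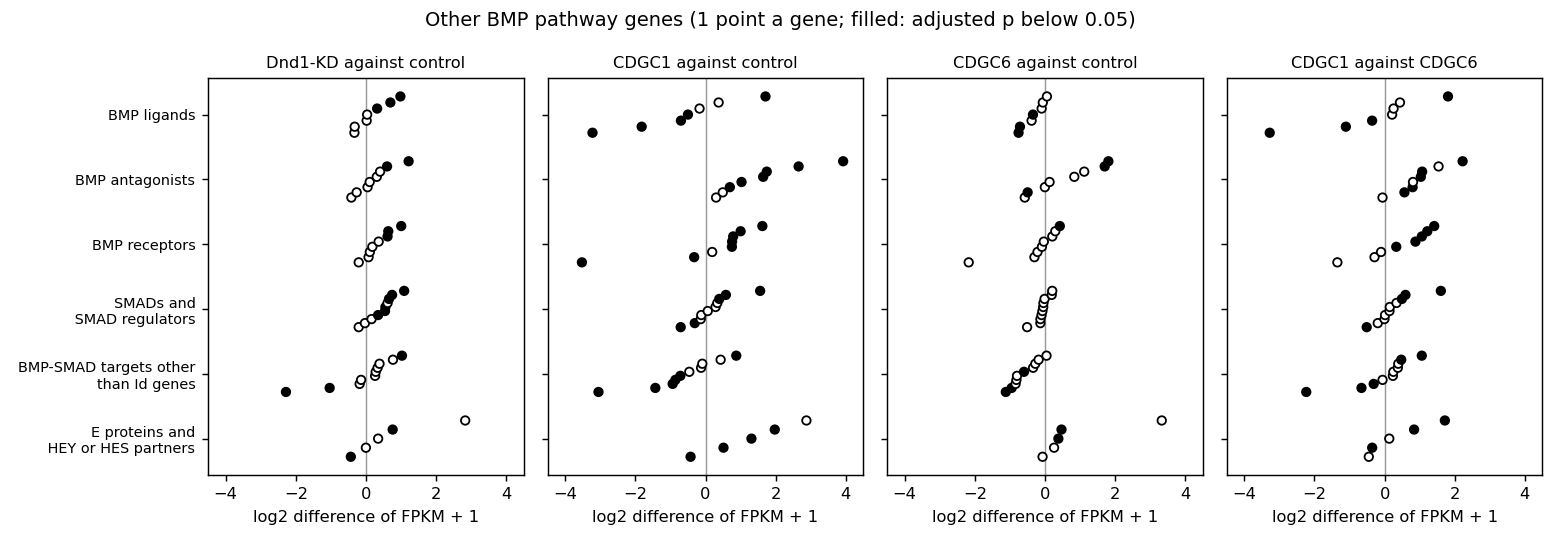
Log2 difference of FPKM + 1 (x axis) for the 48 other BMP pathway genes that were tested, 1 point a gene, by role (y axis) in the 4 comparisons, first group minus second; filled points passed at an adjusted p below 0.05. The antagonists lie right of 0 in CDGC1 against control, and in CDGC6 against control no SMAD or SMAD regulator is filled.

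Over these 6 lists together, 48 of 67 genes were tested. Some of them, as Gdf6, Grem1 and Gata3, met the filter only through groups where they are high, which favours rises there. In CDGC1 against control 19 rose and 14 fell (median log2 difference 0.32), in CDGC6 against control 5 rose and 7 fell (−0.08), in Dnd1-KD against control 16 rose and 3 fell (0.31), and in CDGC1 against CDGC6 18 were higher and 8 lower (0.29). Over all 11892 genes 2798 rose and 3197 fell in CDGC1, 986 and 1201 in CDGC6, and 2454 and 1840 in Dnd1-KD, and 2733 were higher and 2857 lower in CDGC1 than in CDGC6.

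Markers of other cells moved with some of these groups. Of 18 fibroblast or feeder genes, 15 were tested and 12 rose in CDGC1, 8 in CDGC6 and 5 in Dnd1-KD, with none lower. Of all genes, 23.5%, 8.29% and 20.6% rose there. Col1a2, Col6a1, Postn and Prrx1 reached 1 FPKM only in the derived lines, and so met the filter only through groups where they are high. This favours rises over falls in the counts for the derived lines. The summed FPKM of the 18 was 233 to 362 in CDGC1, 219 to 223 in CDGC6, 617 to 646 in Dnd1-KD and 245 to 300 in control. Lum was listed at 0 in both libraries of CDGC6 and of Dnd1-KD. The largest part of the sum was Tagln, at 217 and 117 FPKM in CDGC1 and 146 and 124 in CDGC6. In Dnd1-KD Tagln was at 525 and 555 FPKM, and in control at 215 and 266. The sum thus mostly followed Tagln and not the number of genes that rose. The sum over 13 extraembryonic endoderm genes was 59.4 to 61.3 FPKM in CDGC1, 48.4 to 52.9 in CDGC6, 91.7 to 106 in Dnd1-KD and 49.1 to 50.8 in control, with Ttr listed at 0 throughout and Afp in CDGC6. Of these genes 6 were tested, and 5 rose in Dnd1-KD, 1 rose and 3 fell in CDGC1, and 1 fell in CDGC6. Gata4 reached 1 FPKM only in Dnd1-KD, and Gata6 only there and in CDGC1 library 2, so the filter favoured their rise in Dnd1-KD. The sum over 13 testis somatic genes was 94.97 to 120 FPKM in CDGC1, 27.9 to 32.5 in CDGC6, 52.6 to 61.0 in Dnd1-KD and 42.6 to 44.9 in control. Most of it was the single gene Clu. Clu was at 107 and 81.8 FPKM in CDGC1 and 19.1 and 14.4 in CDGC6. In Dnd1-KD it was at 42.6 and 51.5, and in control at 29.5 and 31.2. Cyp17a1 was at 0 in CDGC1, Hsd3b1 at 0 in the other 3 groups and Star at 0 in Dnd1-KD and control. Of 12 pluripotency genes, 8 fell and 2 rose in CDGC1, 1 rose in CDGC6 and 9 fell in Dnd1-KD. The part of these markers in the BMP and Id results was not tested.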

How the data were processed

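The deposited FPKM values were made by the authors with Cufflinks, 1 gene table per library, per the file headers. Genome build mm10 and the tools TopHat2, Bowtie and Cuffdiff also appear in the submitters' processing notes; versions and settings are not given in the sources used here. TruSeq RNA v2 libraries, which do not mark strand, were run on a HiSeq2500 after RNeasy purification, per the labels.

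Symbols joined in any library were treated as 1 unit in all 8, with FPKM summed, and 24 gene names stored as dates were read back. Entries without a gene name, which held 76.8% to 85.6% of all FPKM per library, and 1056 small RNA units were left out. The 11892 units that reached 1 FPKM in 2 or more libraries were tested on log2(FPKM + 1) with limma 3.58.1 in R 4.3.3 (all 8 libraries, a mean for each group, trended eBayes, two-sided tests, Benjamini-Hochberg adjustment over all units). The filter could be met by 1 group alone. The test was checked on simulated data. The files hold no read counts, so no count model was used, and the fragments behind a value were implied from its interval.

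The 9 genes, the 6 pathway lists and the 4 marker lists were chosen with earlier results of these data known. Named were all 9 genes, up to 3 genes per pathway list and comparison with the smallest p, the 3 profiles nearest to Id1 and to Bmp4, and Dnd1 and Hprt; Chrd, Cer1, Nog, Hhex, Cdx2 in CDGC1 and the named marker genes were added after their values were seen. Gene positions come from GENCODE M21 and promoters from RefSeq (GRCm38.p6). The 19 alternatives were other pseudocounts, filters, scalings and fits, the highest entry per gene name, small RNA genes kept (added after the data were seen) and each library left out in turn. Python 3.11.15, pandas 2.3.3, numpy 2.4.6 and matplotlib 3.10.9 were used.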

Additional observations from a re-analysis of the deposited data

Results flagged for a closer look

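The derived lines CDGC1 and CDGC6 were compared with the same control, so the CDGC1 minus CDGC6 difference is the test of whether their differences from control are equal. It passed for 7 of the 9 genes, on the log2(FPKM + 1) scale: Bmp4 (−2.45), Bmpr1a (0.73), Smad1 (0.72), Smad5 (0.65), Id1 (1.49), Id2 (1.48) and Id4 (−1.17). Bmp4 and Id4 were lower in CDGC1, and the other 5 were higher there.

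The difference also passed for 18 pathway genes, the 3 with the smallest p in each list, so this choice favoured a pass. Of all 48 pathway genes tested 26 passed, where 47.0% of all genes did. Higher in CDGC1 than in CDGC6 were the antagonists Twsg1 (1.03), Fst (2.22) and Nbl1 (0.80), the ligand Bmp7 (1.81) and the receptors Acvr2a (1.22), Acvr1 (1.41) and Bmpr2 (1.06). So were the target Msx1 (1.06), the E protein gene Tcf12 (1.72), Hes1 (0.84), Zeb2 (1.60), Lemd3 (0.59) and Smad4 (0.49). Lower in CDGC1 were the ligands Gdf3 (−3.28) and Bmp8b (−1.10), Tbx3 (−2.23), Hey1 (−0.66) and Hes6 (−0.35). Hes6 lost its call in 9 alternatives, Msx1 in 2 and Hey1 in 1, under quantile normalization (−0.19).

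An entry without a gene name, outside the comparisons, lies at the start of Id4 on chromosome 13. It had 8.29 and 9.72 FPKM in Dnd1-KD (48261170 to 48261473 and 48261170 to 48261471, mm10) and 3.72 and 4.12 FPKM in control (48261130 to 48261450). Of the derived lines' libraries, CDGC6 library 2 had it at 4.46 FPKM (48261133 to 48261437), and the other 3 listed no such entry. No test was run on it.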

How the results depend on the processing

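For the 9 genes, 676 results were recomputed over 19 alternatives: 621 kept their direction and their side of the threshold, 40 lost their call, 4 gained one and 11 changed sign. Each change of sign was in a difference that had not passed. In Dnd1-KD against control, Id3 became −0.00395 under median-ratio scaling and ranged from −0.12 to 0.22 over the libraries left out, and Smad6 from −0.50 to 0.32, with Dnd1-KD replicates 1 and 2 at the ends. In CDGC1 against control, Id3 ranged from −0.79 without CDGC1 replicate 1 to 0.17 without replicate 2. In CDGC6 against control, Id4 became −0.0487 under quantile normalization and ranged from −0.0823 to 0.0981 over the libraries left out, below 0 without CDGC6 replicate 2 or control replicate 2 (−0.0331). There, Bmpr1a ranged from −0.0571 without CDGC6 replicate 1 to 0.0826 without replicate 2, with −0.0241 without control replicate 2, and Smad5 from −0.29 to 0.0301, above 0 without CDGC6 replicate 2. Between CDGC1 and CDGC6, Smad6 became 0.15 under quantile normalization. The cause was not tested. Of 1399 results for the other named genes, 1265 kept direction and call, 124 lost the call, 10 gained it and none changed sign.

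The number of pathway genes passed was 21 in CDGC1 and 4 in CDGC6 against control at a filter of 5 FPKM, which tests fewer genes. Leaving out each library in turn moved the number of the 9 genes passed to between 1 and 5 in Dnd1-KD, 4 and 7 in CDGC1 and 1 and 4 in CDGC6 against control, and 6 and 7 between the lines. For pathway genes the ranges were 10 to 21, 23 to 32, 2 to 14 and 21 to 26. For all genes they were 1350 to 4897, 4074 to 6041, 408 to 2880 and 4452 to 5699.

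Libraries of equal number deviated together weakly at most (Pearson's r across 11892 genes of −0.04 to 0.12 over the 6 pairs of groups). The highest value was for control and Dnd1-KD. In these groups library 1 was also the deeper, at 18.0 M and 17.7 M implied fragments against 12.6 M and 10.7 M. Whether libraries of equal number were prepared together cannot be told from these values. With the replicate number as a block, 6 pathway genes passed in CDGC6 against control. Precision is limited by 2 libraries per group and, for Id4 in CDGC1, by 2.97 and 4.71 implied fragments, intervals and floors covering counting error only.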
